A study of Mus musculus with 46 samples.

Results

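NanogBiD, in which an N-terminal piece of SS18 that binds BRG1 is joined to Nanog, was compared with native Nanog (NanogWT) on day 12 (D12) of the reprogramming of mouse embryonic fibroblasts (MEF). The members of the comparison were chosen by their labels, which call the fusion NanogN70, and are 4 of the 46 samples of the series, with 2 replicates of each combination. The series followed both combinations from D0 to D12 by RNA-seq and added MEF, mouse embryonic stem cells (mES) and induced pluripotent stem cells (iPSC). Per the study's methods, OG2-MEF, fibroblasts of E13.5 embryos with an Oct4-GFP reporter, were infected with pMXs retroviruses, kept in iCD3 reprogramming medium from D0 and moved to N2B27 medium with LIF and the inhibitors CHIR99021 and PD0325901 (2iL) for the later days. Both groups carried an Oct4 (gene symbol Pou5f1) retrovirus, so that the form of Nanog is the only factor that the labels set apart. No sort is named, and each sample is a culture in which cells at different stages, or without both viruses, may be mixed. In such bulk RNA, fewer cells of a type and less RNA per cell cannot be told apart. The labels do not say whether the replicates were separate cultures, and the p-values then measure only the spread between these samples, which may be technical.

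Nanog and Oct4 belong to the circuit of transcription factors that keeps embryonic stem cells self-renewing and able to form all lineages of the embryo. SS18 is a subunit of the BAF complex, which uses the ATPase BRG1 (gene Smarca4) to move nucleosomes and open chromatin. On the way to pluripotency fibroblasts silence their matrix and contractile genes, take up epithelial junctions, switch to fast, glycolytic growth and activate the endogenous pluripotency circuit.

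Levels are FPKM, fragments scaled by transcript length and library size, and the values of replicates 1 and 2 are given in that order. Differences are NanogBiD minus NanogWT on the log2(FPKM + 1) scale, which understates changes of low genes. They were tested for 16842 genes with limma, with the spread shared by the 16 groups of the time course, and "called" stands for an adjusted p (Benjamini-Hochberg) under 0.05 with a log2 difference whose size reached 1. The same-combination D12 libraries correlated across genes at r = 0.978 (NanogBiD) and 0.981 (NanogWT). In depth, both NanogWT D12 libraries stood apart from the NanogBiD ones. Relative to the mean of the NanogBiD D12 libraries, depth was 0.949 and 1.05 with NanogBiD and 3.73 and 2.40 with NanogWT, and 1.05 to 1.13 in the MEF and mES libraries. At D12, depth thus went with the combination and the effects of either cannot be told apart, while the 4 libraries of D7 lay at 1.15 to 1.29. At D12 fewer genes reached 1 FPKM with NanogWT (13863 and 13900) than with NanogBiD (14431 and 14364), and the part of depth in this was not tested. Ribosomal protein genes held 10.0% and 8.38% of the summed FPKM with NanogBiD and 7.29% and 6.14% with NanogWT, and their part in the results was not tested.

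The delivered factors themselves were read first. Pou5f1 (chr17:35506032-35510777, mm10) stood at 613 and 414 FPKM with NanogBiD and at 2689 and 1498 with NanogWT, against 877 in mES and 0.273 and 0 in MEF (log2 difference -1.99, SE 0.36, adjusted p = 0.000131). Both NanogWT samples thus held more Pou5f1 transcript than either NanogBiD sample and than mES. For Nanog the values were 223 and 162 with NanogBiD, 261 and 365 with NanogWT and 365 in mES (log2 difference -0.70, SE 0.20, adjusted p = 0.00806), a difference under the fold limit. Ss18, which lends its start to the fusion, was at 54.3 and 44.0 against 24.7 and 28.3 FPKM, with 26.7 and 29.3 in MEF (log2 difference 0.86, SE 0.17, adjusted p = 0.000267). It stayed under the fold limit too, except without replicate 2 of NanogBiD, where the difference was 1.01. FPKM per gene do not part vector from endogenous transcripts, so none of these values shows which copy was read.

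At D12, 2267 of the 16842 genes tested (13.5%) were called higher with NanogBiD and 1679 (9.97%) lower, together 3946 (23.4%). The median over all genes was 0.17, and quantile normalization, which gives all libraries one distribution, moved it to 0.065. The filter on low values (1 FPKM in 2 samples of the time course) lets in genes through the combination in which they are high. Of the 2267 genes, 515 were among 1455 that had fewer than 2 NanogWT samples at 1 FPKM over all days, and of the 1679, 101 were among 767 with fewer than 2 such NanogBiD samples. Among the 14755 genes with 2 or more such samples in each combination, 1750 were called higher and 1578 lower. Among the lists below, collagens, matrix glycoproteins and Wnt targets each had 1 lower call with fewer than 2 such NanogBiD samples. The chemokine list had 2 of these. The DNA methylation, neural and Hox lists each had 1 higher call with fewer than 2 such NanogWT samples. By the size of the difference, the 10 leading protein-coding genes on the higher side were Slc2a3, Dppa3, Tdgf1, Fabp3, Cldn4, Krt8, Elf3, Slc16a3, Krt18 and Tfap2c, with log2 differences from 4.31 to 3.43. On the lower side they were Dpt, Col8a1, Serpinb9, Col28a1, C1qtnf2, Efemp1, Osr1, Tnfrsf11b, Grem1 and Adamts1, from -6.98 to -4.90. The lower side thus reached further from 0 than the higher side.

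**Figure D1:**
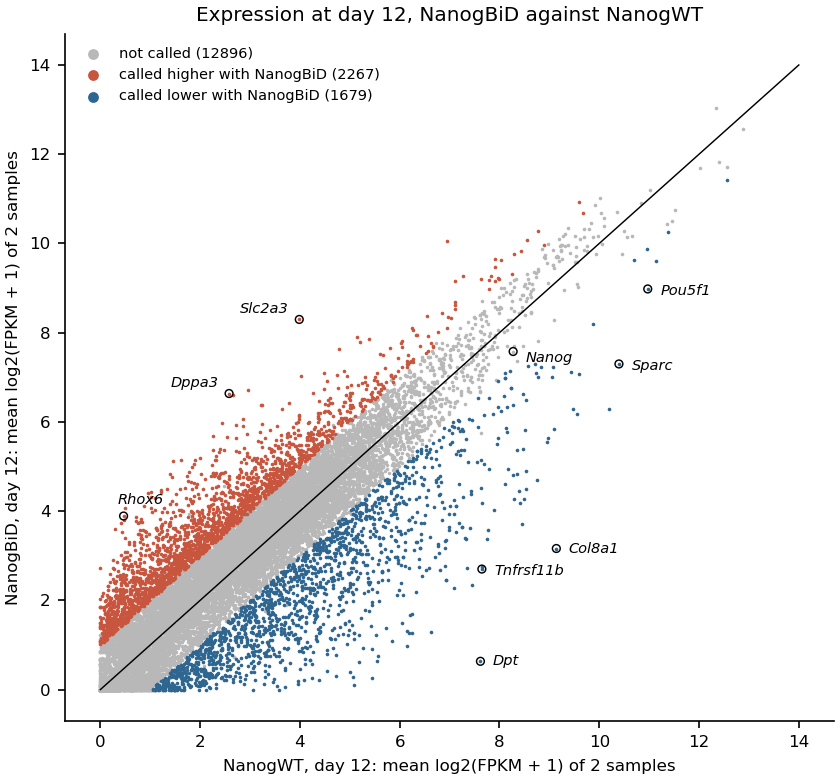
Each point is 1 of 16842 genes, with the mean log2(FPKM + 1) of the 2 NanogWT samples of day 12 on the x axis and of the 2 NanogBiD samples on the y axis; the line marks equal levels. The 2267 genes called higher with NanogBiD are red, the 1679 called lower blue, and circles mark genes described in the text.

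Of the leading higher genes, Slc2a3 (chr6:122727809-122802363) encodes the glucose transporter GLUT3 of early embryos and stem cells. It read 353 and 278 FPKM with NanogBiD, 10.8 and 20.2 with NanogWT and 1071 in mES, a 19.8-fold difference on the scale used. Dppa3 (chr6:122626424-122630271), also called Stella, protects methylation of the maternal genome in the zygote. Its values were 131 and 74.0 with NanogBiD and 1.57 and 12.9 with NanogWT, and both NanogBiD samples lay above the 22.9 of mES (log2 difference 4.06, SE 0.49, adjusted p = 1.3e-06). Tdgf1 (chr9:110939608-110946158), the Nodal co-receptor Cripto, was at 93.3 and 99.2 against 3.12 and 8.74 FPKM (log2 difference 3.94, SE 0.34, adjusted p = 1.43e-08). Tfap2c, a transcription factor of germ cells and trophoblast, was at 31.1 and 23.9 against 0.863 and 2.71, with 20.9 in mES. The choice of the 10 leading genes in each direction required that the groups did not overlap. Fabp3, a fatty acid binding protein, was at 140.5 and 78.2 against 5.67 and 8.15, and Elf3, an epithelial ETS factor, at 44.5 and 26.8 against 1.64 and 2.55.

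Of the leading lower genes, Dpt (chr1:164796663-164824274) encodes dermatopontin, a small protein of the skin matrix. It read 0.279 and 0.883 FPKM with NanogBiD and 197 and 194 with NanogWT, where MEF held 2.57 and 0.391 (log2 difference -6.98, SE 0.26, adjusted p = 2.32e-13). At D7 NanogBiD held 0.137 and 0.150 FPKM of Dpt. It may thus have passed the filter through NanogWT, an entry that favours a lower call. Col8a1 (chr16:57624256-57754737), a short-chain collagen, was at 6.32 and 9.95 against 564 and 562 FPKM, with 85.7 and 77.3 in MEF and 0 in mES (log2 difference -5.98, SE 0.18, adjusted p = 2.95e-14). NanogWT was thus far above the fibroblasts of origin for both genes, and NanogBiD was not. Serpinb9, an inhibitor of granzyme B, was at 1.17 and 1.76 against 82.8 and 116, with 3.32 and 2.15 in MEF. Tnfrsf11b (chr15:54250619-54278484), the decoy receptor osteoprotegerin, was at 5.35 and 5.67 against 205 and 194, and Grem1, a secreted BMP antagonist, at 0.771 and 2.29 against 72.3 and 72.3. Osr1, a transcription factor of embryonic mesenchyme, stood at 1.70 and 1.13 FPKM against 76.6 and 73.3 (log2 difference -4.98, SE 0.16, adjusted p = 3.67e-14). Gm32569 overlaps Dpt and Gm36181 overlaps Serpinb9 in the annotation, and since no strand setting is given, reads of each pair may be shared. The same holds for Fabp3 (with Zcchc17), Tdh (Gm17232), Smarcd1 (Gm34939), Cbx6 (Npcd), Plagl1 (Hymai) and Pax6 (Elp4), described here or in later paragraphs.

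The pluripotency circuit was the first group asked about. Of 20 transcription factor genes of naive pluripotency other than the delivered ones, 18 were called higher with NanogBiD and 0 lower, with a median difference of 2.21 against 0.17 over all genes. Of these, 17 passed the filter within each combination, 15 of them called higher. Summed, the factors held 996 and 768 FPKM with NanogBiD, 197 and 230.1 with NanogWT, 110.2 and 86.1 in MEF and 1602 in mES. The largest differences belonged to Sall4 (chr2:168748332-168767201), at 59.5 and 41.3 against 3.01 and 7.51 FPKM (log2 difference 3.11, SE 0.31, adjusted p = 1.13e-07), and Esrrb (chr12:86361117-86521628), at 66.1 and 53.2 against 3.97 and 9.66 (log2 difference 3.05, SE 0.28, adjusted p = 4.23e-08). Sall4 is a zinc finger factor and Esrrb an orphan nuclear receptor, and both bind next to Oct4 and Sox2 in stem cells. Klf2, a Krüppel-like factor of the naive state, was at 177 and 95.2 against 12.8 and 18.2, and Prdm14, which keeps DNA methylation low in that state, at 15.5 and 10.1 against 0.337 and 1.40. Prdm14, unlike Sall4 and Esrrb, was not called at D7, where its difference was 0.52, and the change from D7 to D12 was 2.40 (adjusted p = 3.07e-05, limma). Both NanogWT samples of D7 listed Prdm14 at 0. It may have passed the filter through NanogBiD, an entry that favours a higher call, so this change is a description. The remaining 2 factors were not called. Klf4 was at 16.7 and 21.7 against 13.5 and 13.5 FPKM, far from the 165 of mES in both, and Stat3, the transducer of LIF, was at 23.7 and 42.5 against 55.8 and 57.3. Without replicate 2 of NanogBiD, Stat3 was called lower.

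Among 24 downstream genes of pluripotency, 22 were called higher and 0 lower, with a median of 2.91, and 18 of the 20 that passed the filter within each combination were higher. Together they held 3000.0 and 1703 FPKM with NanogBiD, 233 and 358 with NanogWT, 7.00 and 5.93 in MEF and 5359 in mES. Fgf4 (chr7:144861386-144865245), the autocrine growth factor of the inner cell mass, was at 61.6 and 40.8 against 2.67 and 5.26 FPKM and listed at 0 in both MEF libraries (log2 difference 3.42, SE 0.30, adjusted p = 1.64e-08). The members without a call were Alpl, alkaline phosphatase, at 106 and 68.0 against 49.5 and 39.2, and Jam2 at 25.6 and 21.6 against 15.7 and 20.1. Both were above MEF (2.37 and 0.159 for Alpl and 1.07 and 1.24 for Jam2) in all 4 samples.

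Zfp42 (Rex1), a marker of the naive state, was at 57.0 and 28.2 against 3.09 and 6.55 FPKM (log2 difference 2.89). Its promoter is shown for the octamer, a motif bound by Oct4. Of the called pluripotency genes found to hold it, Zfp42 had the largest difference. Of the 40 called genes of both pluripotency lists, 24 had a RefSeq promoter in the reference (GRCm38.p6). Of these, 2 (Zfp42 and Zfp296) were found to hold ATGCAAAT on either strand in the 250 bases before a start. Any genes of a chromosome left out of this search stayed in the 24, so holders may be missing. The window before the Zfp42 start is chr8:43307010-43307259 (minus strand), written 5′ to 3′ along the gene with the octamer, here on the opposite strand and 186 bases before the start, in capitals.
Zfp42: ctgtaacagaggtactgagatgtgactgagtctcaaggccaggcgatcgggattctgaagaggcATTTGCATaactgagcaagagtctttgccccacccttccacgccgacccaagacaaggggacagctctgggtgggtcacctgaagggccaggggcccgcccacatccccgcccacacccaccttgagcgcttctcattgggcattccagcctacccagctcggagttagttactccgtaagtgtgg

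Epithelial and mesenchymal genes moved in opposite directions. Of 28 genes of epithelial junctions and keratins, 22 were called higher and 0 lower (median 1.68). For 10 of them fewer than 2 NanogWT samples reached 1 FPKM over all days, and of the other 18 the higher calls were 14. Cdh1 (chr8:106603350-106670247), E-cadherin, was at 49.8 and 33.3 FPKM with NanogBiD, 2.46 and 7.15 with NanogWT, 0.0148 and 0.0289 in MEF and 185 in mES (log2 difference 2.97, SE 0.31, adjusted p = 2.17e-07). Cldn4, a tight junction claudin, was at 47.1 and 24.1 against 0.836 and 3.15 FPKM (log2 difference 3.65, SE 0.47, adjusted p = 2.53e-06). The keratin pair of simple epithelia was uneven within NanogBiD, with Krt8 at 28.8 and 8.39 against 0.0645 and 0.886 and Krt18 at 35.2 and 11.6 against 0.541 and 1.42. Replicate 1 of NanogBiD was well above replicate 2 for both keratins, and the groups were still apart.

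Of 29 mesenchymal genes, 1 was called higher and 18 lower, with a median of -1.82. Twist1 (chr12:33957671-33959831), a driver of the mesenchymal state, was at 6.03 and 7.81 against 137 and 78.8 FPKM, and Thy1 (chr9:44043384-44048579), a surface marker of fibroblasts, at 9.13 and 9.88 against 197 and 126. MEF held 158 and 264 FPKM of Thy1, well above both NanogBiD samples. Nt5e (CD73) was at 3.51 and 3.88 against 60.1 and 64.5 (log2 difference -3.75, SE 0.25, adjusted p = 5.94e-10). The 1 mesenchymal gene called higher was Msx2, a homeobox factor, at 6.20 and 3.92 against 0.799 and 1.31. Contractile genes of smooth muscle followed: 10 of 15 were called lower and 0 higher (median -1.67), among them Myl9, a myosin light chain, at 3.40 and 3.36 against 86.9 and 50.5, and Actg2, an enteric actin, at 1.33 and 1.52 against 39.1 and 27.3. For Myl9 and Actg2 MEF held 267 and 349.5 and 87.9 and 200 FPKM, above both combinations.

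**Figure D2:**
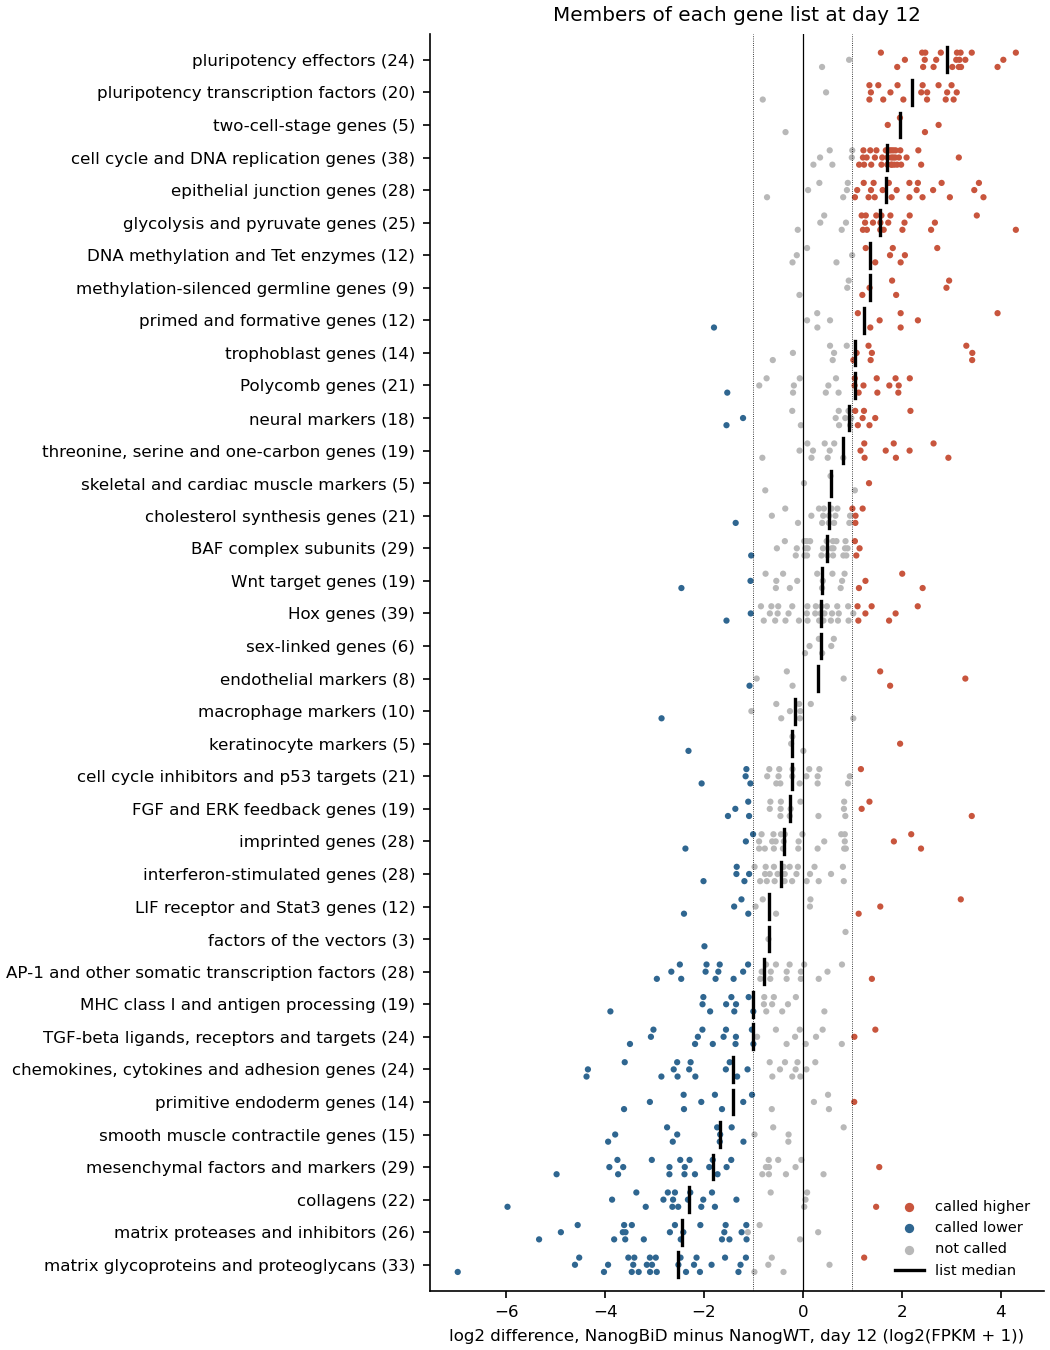
Each point is a tested member of a gene list, placed by its log2 difference at day 12 (NanogBiD minus NanogWT, log2(FPKM + 1)); red points were called higher, blue lower, grey not called, black bars are list medians and dotted lines the fold limit. The number tested stands after each name, and lists are ordered by their median, from -2.52 for matrix glycoproteins and proteoglycans to 2.91 for pluripotency effectors; called germline and two-cell-stage genes passed the filter on low values with fewer than 2 NanogWT samples.

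On the lower side the matrix lists had the medians furthest from 0. Of 22 collagen genes 17 were called lower and 1 higher (median -2.30), and in sum they stood at 356 and 526 FPKM with NanogBiD, 3879 and 3249 with NanogWT, 8016 and 7018 in MEF and 38.1 in mES. Col1a2 (chr6:4505618-4541543) and Col3a1, chains of the fibrillar collagens of connective tissue, were at 57.5 and 88.8 against 802 and 699 FPKM and at 61.0 and 98.4 against 777 and 650.1. Col5a2, which sets fibril diameter, was at 13.6 and 17.1 against 254 and 217 (log2 difference -3.86, SE 0.14, adjusted p = 1.35e-13). The 1 collagen called higher was Col18a1, of basement membranes, at 37.3 and 29.1 against 14.8 and 8.34. Among matrix glycoproteins and proteoglycans 27 of 33 were called lower and 1 higher (median -2.52). Ogn (osteoglycin) was at 4.65 and 6.801 against 118 and 221, Fbln5, which organizes elastic fibres, at 2.10 and 2.31 against 69.0 and 76.8, and Thbs2 (thrombospondin 2) at 15.4 and 21.9 against 307 and 321. Fbln1 was the exception, at 16.4 and 19.12 against 7.10 and 6.76.

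Enzymes that cut the matrix and their inhibitors were on the same side: 22 of 26 were called lower and 0 higher (median -2.45). Adamts1 (chr16:85793827-85803113) was at 3.98 and 8.17 against 206 and 195 FPKM (log2 difference -4.90, SE 0.21, adjusted p = 1.99e-12), and Adamts5, an aggrecanase, at 1.88 and 2.58 against 76.5 and 72.8. In MEF these were at 55.2 and 32.6 and 20.7 and 16.4, under both NanogWT samples and above both NanogBiD samples. Mmp3 (stromelysin 1), which cleaves many matrix proteins, was at 0.0846 and 0 against 17.9 and 7.99 FPKM, a log2 difference of -3.64. Its promoter is shown for the AP-1 motif (TGANTCA, both strands). Of the called lower collagen, matrix and mesenchymal genes found to hold it, Mmp3 had the largest difference. Of the 84 called lower genes of those lists, 59 had a RefSeq promoter. Of these, 4 were found to hold the letters in the 250 bases before a start (Mmp3, Mmp13, Col6a1 and Plaur). Any genes of the chromosome left out of the search stayed in the 59. A holder with a larger difference than Mmp3 may thus be missing. The window is chr9:7445572-7445821 (plus strand, GRCm38.p6), with the match in capitals, 46 bases before the start.
Mmp3: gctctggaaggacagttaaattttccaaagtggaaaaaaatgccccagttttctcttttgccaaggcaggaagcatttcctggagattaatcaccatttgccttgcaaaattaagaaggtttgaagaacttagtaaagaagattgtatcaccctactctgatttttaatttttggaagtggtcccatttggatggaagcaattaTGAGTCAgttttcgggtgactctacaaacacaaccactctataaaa

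Over whole promoter windows (250 bases before to 50 after a start, GRCm38.p6), the TGANTCA letters stood in 4.82% of 2013 promoters of called higher genes, 8.37% of 1577 of called lower genes and 5.34% of 15220 of all tested genes. For the octamer ATGCAAAT the shares were 2.09%, 2.35% and 1.48%, and for the Sox motif AACAAAG 3.83%, 4.63% and 3.99%. The Tead motif GGAATG was in 12.3%, 16.7% and 12.7%, and the interferon response letters GAAANNGAA in 5.71%, 9.00% and 7.08%. Promoters of called lower genes were poorer in CpG, with a median observed to expected ratio of 0.587 against 0.718 for called higher and 0.724 for all genes. These shares were not tested, genes can hold several promoters, and a match is not a bound site.

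Of 24 genes of TGF-beta signalling, a pathway that holds cells in the mesenchymal state, 13 were called lower and 2 higher (median -1.02). The receptor Tgfbr2 (chr9:116087695-116175363) was at 6.90 and 10.8 FPKM with NanogBiD and 100.5 and 117 with NanogWT, against 61.7 and 34.6 in MEF (log2 difference -3.50, SE 0.17, adjusted p = 1.29e-11), and the co-receptor Tgfbr3 at 2.55 and 3.47 against 29.6 and 35.9. Ccn1, a matrix target of the pathway, was at 15.6 and 17.0 against 122 and 159. The higher pair were Tgif1 and Skil, both repressors of Smad-driven transcription, at 24.4 and 19.4 against 7.13 and 7.34 and at 32.9 and 25.8 against 13.5 and 13.7. Without replicate 1 of NanogBiD the Skil difference was 0.87, under the fold limit.

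AP-1 and other transcription factors of somatic cells gave 12 lower and 1 higher calls among 28 (median -0.79). The AP-1 subunit Fosl2 (chr5:32136472-32157840) was at 3.81 and 4.86 against 44.2 and 36.4 FPKM (log2 difference -2.96, SE 0.19, adjusted p = 3.11e-10), Junb at 8.32 and 11.5 against 50.5 and 33.6 and Jun at 28.8 and 40.0 against 78.4 and 70.6. Jund and Fosl1 had no call, at 97.2 and 107 against 125 and 87.7 and at 0.491 and 0.807 against 1.27 and 0.867, so not all AP-1 genes were called. Runx1, a factor of blood and mesenchyme, was at 0.671 and 0.868 against 7.90 and 9.64, and Nfix at 2.36 and 3.71 against 23.3 and 19.6. The 1 member called higher, Tead4, which drives trophectoderm in the embryo, was at 8.57 and 4.88 against 1.89 and 1.80.

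**Figure D3:**
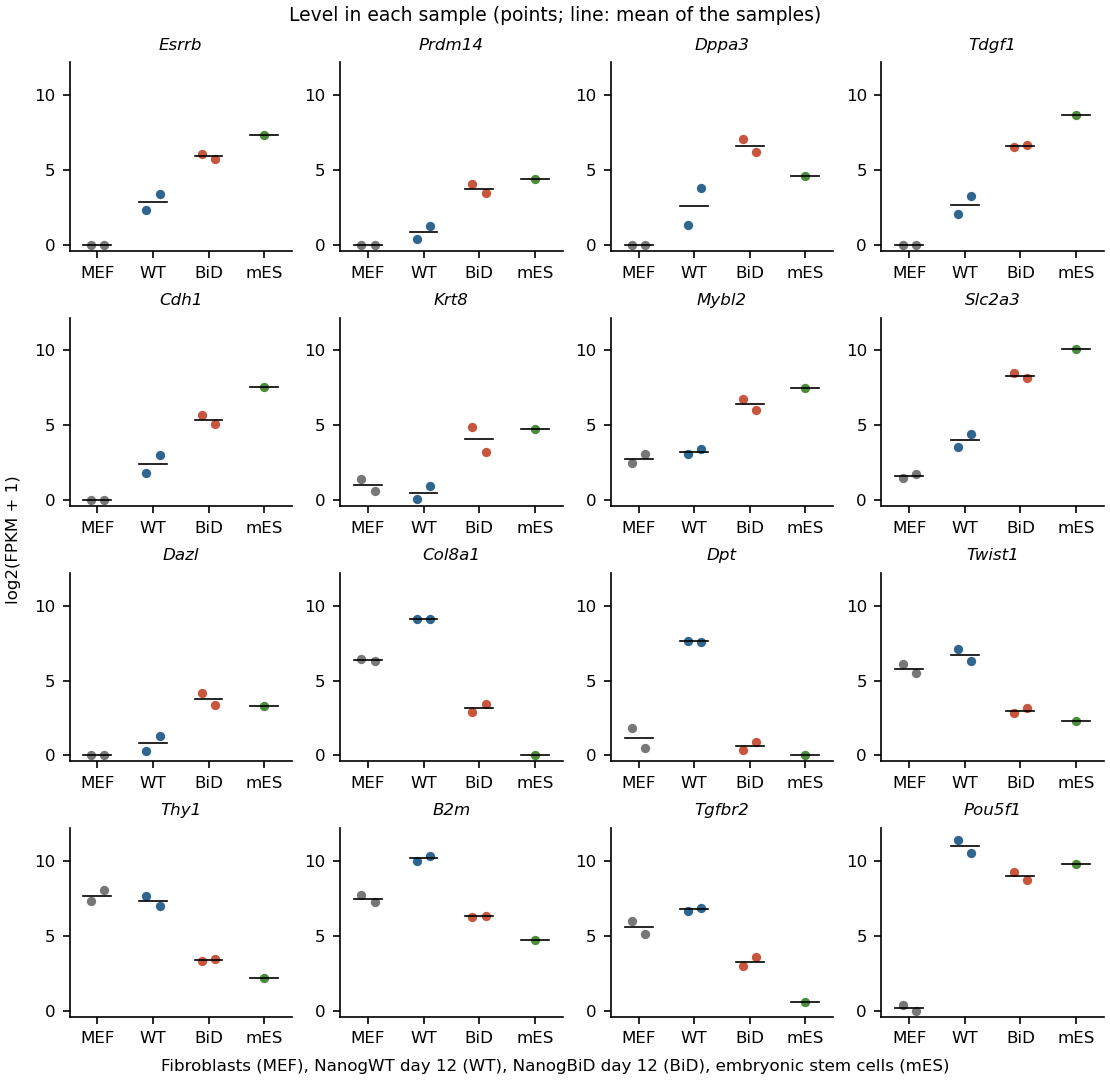
The level of 16 genes described in the text, as log2(FPKM + 1) in each sample of MEF (2), NanogWT at day 12 (2), NanogBiD at day 12 (2) and mES (1); points are samples and lines their mean. For Esrrb, Prdm14, Tdgf1, Cdh1, Mybl2 and Slc2a3 both NanogBiD points lie between NanogWT and mES, and for Col8a1, Dpt and B2m both NanogWT points lie above MEF.

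The immune lists held lower calls and no higher ones at D12. Of 19 MHC class I and antigen processing genes, 10 were called lower and 0 higher (median -1.003). B2m (chr2:122147687-122153082), the invariant chain of MHC class I, was at 75.01 and 80.05 against 1036 and 1314 FPKM, with 206 and 150.3 in MEF and 25.7 in mES (log2 difference -3.90, SE 0.20, adjusted p = 1.87e-11). The class I heavy chain H2-D1, which has closely similar paralogs, was at 23.9 and 26.2 against 111 and 99.6. Chemokines, cytokines and adhesion genes gave 14 lower and 0 higher of 24 (median -1.41). Ccl8 was at 9.99 and 8.75 against 199.8 and 229.6 FPKM while MEF and mES listed it at 0, and Ccl7 at 1.43 and 1.80 against 56.2 and 48.5. Markers of macrophages, which make and answer such signals, were low throughout: 9 of 12 were under 1 FPKM in all 4 samples, and their summed level was 8.89 and 6.44 FPKM with NanogBiD, 25.2 and 9.05 with NanogWT, 5.63 and 11.8 in MEF and 9.48 in mES. Ptprc, the pan-leukocyte marker CD45, was listed at 0 in both samples with NanogBiD and was at 0.0462 and 0.0616 with NanogWT. Of 10 macrophage markers tested, 1 (10.0%) was called lower and 0 higher, against 9.97% and 13.5% over all genes. The lower one was Lyz2 (lysozyme), at 0.648 and 0.260 against 17.0 and 5.08 FPKM. It lost its call without replicate 1 of NanogWT (log2 difference -2.08).

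Interferon-stimulated genes stood otherwise. At D12 5 of 28 (17.9%) were called lower and 0 higher (median -0.45), against 9.97% and 13.5% over all genes. At D7 23 of the 28 had been called lower (median -1.51), against 4.65% over all genes. The difference between the days passed the interaction test, described with the D7 comparison, for 13 of the 28, all upward. Isg15, the ubiquitin-like modifier of this response, was at 8.36 and 4.00 against 12.25 and 8.74 FPKM at D12 and had differed by -2.81 at D7 (change 2.08, adjusted p = 0.146, limma, not passed). Oasl2, a relative of the RNA-sensing oligoadenylate synthetases, was at 6.05 and 3.60 against 3.36 and 3.77 and had differed by -2.47 (change 2.79, adjusted p = 0.000338). The lower calls at D12 were the guanylate-binding proteins Gbp2, Gbp3 and Gbp7, with Ifit2 and Ifi35. Gbp2 was at 2.33 and 1.51 against 9.22 and 12.3 FPKM. Without replicate 1 of NanogBiD 8 members were called lower, and without replicate 2 of NanogBiD 2 were called higher, so single libraries set the count at D12.

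Genes of the cell cycle were among the most uniform groups. Of 38 cell cycle and DNA replication genes, 32 were called higher with NanogBiD and 0 lower, and all 38 had a positive difference (median 1.71). Their summed level was 1752 and 1499 FPKM with NanogBiD, 489.8 and 556 with NanogWT, 701 and 698 in MEF and 2914 in mES. Mybl2 (chr2:163054327-163084688), the B-Myb factor of dividing cells, was at 106 and 64.4 against 7.35 and 9.62 FPKM (log2 difference 3.15, SE 0.32, adjusted p = 1.43e-07), the mitotic checkpoint kinase Bub1 at 27.7 and 24.4 against 3.28 and 5.18, and the origin licensing factor Cdt1 at 49.4 and 42.4 against 7.42 and 9.18. In MEF Bub1 was at 6.44 and 7.52 and Cdt1 at 13.4 and 11.2, above both NanogWT samples and below both NanogBiD samples. Of 21 cell cycle inhibitors and p53 targets 4 (19.05%) were called lower and 1 (4.76%) higher, against 9.97% and 13.5% over all genes. The inhibitor Cdkn2b was at 5.91 and 6.37 against 32.2 and 25.2 (log2 difference -2.05, SE 0.27, adjusted p = 2.86e-06), while Cdkn1a (p21) had no call at 111 and 133 against 213 and 189.8. The higher one was Bbc3, at 9.52 and 9.44 against 5.00 and 2.60. Without replicate 1 of NanogBiD the counts of this list were 2 lower and 0 higher, and without replicate 2 of NanogWT the Bbc3 difference was 0.80.

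Of 25 glycolysis and pyruvate genes 20 were called higher and 0 lower (median 1.56). Slc16a3, a lactate exporter, was at 70.6 and 53.6 against 8.35 and 2.18 FPKM, the glucose transporter Slc2a1 at 232 and 211 against 42.9 and 29.9, and Pfkp, a phosphofructokinase, at 23.4 and 20 against 2.27 and 2.87 (log2 difference 2.67, SE 0.15, adjusted p = 6.15e-11). Csnk1d overlaps Slc16a3 and Pitrm1 overlaps Pfkp, both at like levels in the combinations. Of 19 genes of threonine, serine and one-carbon metabolism 9 were called higher and 0 lower (median 0.82). Tdh, the threonine dehydrogenase on which mouse stem cells depend, was at 108 and 66.3 against 6.58 and 23.8, with 189 in mES, and Amt of the glycine cleavage system at 43.2 and 35.6 against 3.64 and 4.89. Cholesterol synthesis genes gave 4 higher (19.05%) and 1 lower (4.76%) of 21, not far from the 13.5% and 9.97% over all genes, with a median of 0.53. At D7 they had given 0 and 3 (5.79% and 4.65% over all genes), with a median of -0.62. Hsd17b7 was the lower one, at 8.48 and 9.63 against 25.6 and 23.99. Without replicate 2 of NanogWT the higher calls of this list fell to 0, and without replicate 2 of NanogBiD to 2.

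Chromatin regulators differed by family. Among 12 genes of DNA methylation and its removal 7 were called higher and 0 lower (median 1.37). Tet1, which oxidizes methylcytosine, was at 15.03 and 15.1 against 1.96 and 3.99 FPKM, the maintenance helicase Hells at 31.5 and 24.4 against 5.45 and 9.28, and Dnmt3b, a de novo methyltransferase, at 10.3 and 6.93 against 0.959 and 1.95. Dnmt3l was uneven within NanogBiD, at 18.5 and 4.00 against 0.502 and 0.497, and overlaps Aire. Of 21 Polycomb genes 11 were called higher and 1 lower (median 1.05). Suz12, a core subunit of PRC2, was at 97.0 and 81.4 against 17.9 and 28.4, and its partners Jarid2 and Mtf2 were at 44.5 and 36.9 against 8.93 and 10.8 and at 39.5 and 27.6 against 5.30 and 8.16. Epop was at 60.5 and 46.1 against 11.8 and 15.8, both far from the 423 of mES. Cbx6, of PRC1, was the lower one at 22.4 and 21.4 against 77.8 and 54.7, and without replicate 2 of NanogBiD 3 Polycomb genes were lower.

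Of 29 genes of BAF, the complex that the fusion was built to bind, 3 were called higher and 1 lower (13.5% and 9.97% over all genes), with a median of 0.48. Smarca4, the ATPase BRG1, was at 50.2 and 60.1 against 34.3 and 33.6 FPKM (log2 difference 0.68, not called). Smarcd1 was at 61.9 and 63.2 against 28.0 and 27.4, Actl6a (BAF53A) at 50.2 and 34.7 against 19.3 and 19.2 and Dpf2 at 41.3 and 38.6 against 17.5 and 20.03. The alternative ATPase Smarca2 (BRM) was at 3.51 and 4.92 against 9.50 and 9.85 (log2 difference -1.05, SE 0.15, adjusted p = 1.27e-05). Of these, Actl6a and Smarca2 were under the fold limit without replicate 1 of NanogBiD (0.82 and -0.85) and Dpf2 without replicate 1 of NanogWT (0.96).

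FGF and ERK feedback genes gave 3 higher (15.8%) and 4 lower (21.1%) of 19, against 13.5% and 9.97% over all genes (median -0.27). Fgf4 was on the higher side with the phosphatase Dusp5, at 7.32 and 5.84 against 1.55 and 2.46, and Ier3 on the lower, at 11.2 and 13.5 against 31.8 and 34.9. Without replicate 1 of NanogBiD 1 was lower. Wnt targets gave 4 higher (21.1%) and 2 lower (10.5%) of 19, shares not far from those over all genes. Tcf7, a factor that acts with beta-catenin, was at 20.4 and 19.3 against 2.45 and 3.38 (it overlaps Skp1a) and its relative Lef1 at 9.44 and 6.84 against 0.653 and 2.05. Apcdd1, a Wnt inhibitor, was lower, at 29.7 and 37.1 against 185 and 189 (log2 difference -2.46, SE 0.16, adjusted p = 4.37e-10). At D7 10 of the 19 Wnt targets had been called higher, against 5.79% over all genes. The direct target Axin2, at 16.3 and 16.2 against 19.4 and 16.1 FPKM at D12, had differed by 1.07 at D7 (change -1.19, adjusted p = 0.0249, limma). Of 12 LIF receptor and Stat3 genes 3 were higher and 4 lower. The kinase gene Pim1 (chr17:29490785-29496111), a Stat3 target, was at 70.8 and 61.2 against 4.76 and 8.25 (log2 difference 3.19, SE 0.26, adjusted p = 8.71e-09), whereas the shared receptor chain Il6st was at 35.0 and 44.6 against 102 and 108 and the oncostatin receptor Osmr at 3.68 and 6.69 against 25.4 and 37.3.

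Primed and formative genes gave 7 higher and 1 lower of 12 tested, and 5 and 1 of the 8 that passed the filter within each combination. Another 4 were not tested. Cldn6 was at 7.60 and 4.65 against 0.0892 and 0.772, and Sox3 at 28.1 and 23.8 against 8.78 and 3.75, which lost its call without replicate 2 of NanogWT (log2 difference 1.46, adjusted p = 0.0628, limma). Pou3f1 (Oct6) was the lower one at 4.55 and 9.01 against 30.9 and 20.1. Of 18 trophoblast genes 4 were not tested and 7 passed the filter with fewer than 2 NanogWT samples at 1 FPKM. Of the other 7, 5 were called higher and 0 lower. The homeobox genes Rhox6 and Rhox9, neighbours on the X chromosome with similar sequences, were at 19.6 and 9.71 and at 17.9 and 8.27 FPKM with NanogBiD. NanogWT held 0 and 0.907 and 0 and 0.786, and mES 0.557 and 1.64. Cdx2, the defining trophectoderm factor, was under 1 FPKM in all 4 samples (0.284 and 0.193 against 0.262 and 0.605), and over all 14 tested trophoblast genes the 8 higher calls became 4 without replicate 1 of NanogBiD. Primitive endoderm genes gave 9 lower and 1 higher of 14 (median -1.42). Several of those lower, such as Sparc at 153 and 159.7 against 1451 and 1247 and Lamb1 at 9.26 and 12.3 against 63.0 and 59.8, are matrix genes that fibroblasts make too. The higher one, Lama1, was under the fold limit without replicate 2 of NanogBiD (0.82). The defining factors were low, with Gata4 under 1 FPKM in all 4 samples and Gata6 at 0.529 and 0.187 against 0.997 and 1.18.

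Germline genes that DNA methylation keeps silent in somatic cells, and genes of the cleavage embryo that mark a rare state of stem cells, were mostly too low to be tested. Of 20 germline genes 11 did not pass the filter, and 10 were under 1 FPKM in all 4 samples. Of the 9 tested, 6 had fewer than 2 NanogWT samples at 1 FPKM over all days and were all called higher, as such an entry favours, and none of the other 3 was called. Their levels are therefore given without a test. Dazl (chr17:50279393-50293620), an RNA-binding protein of germ cells, was at 17.0 and 9.22 FPKM against 0.229 and 1.48, with 9.08 in mES and 0 in MEF. Sohlh2, a factor of spermatogonia and oocytes, was at 11.7 and 7.77 against 0.207 and 0.642, and Stra8, the meiotic inducer, at 3.93 and 3.32 against 0.0969 and 0.418. For these 3 genes both NanogBiD samples lay above both NanogWT samples. Of 18 cleavage-stage genes 13 were not tested. The 4 called higher, all Zscan4 copies, likewise passed the filter with fewer than 2 NanogWT samples, and the remaining tested one was not called. Zscan4f was at 10.4 and 10.2 against 0.594 and 0.775 FPKM and Zscan4c at 7.60 and 5.87 against 0.350 and 0.424, above the mES values of 1.66 and 1.03. The Zscan4 copies are near-identical, so how reads were split between them is uncertain. Dux, their activator in the embryo, was at 0.263 and 0.204 against 0 and 0.0298 and not tested.

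Markers of other differentiated cells were set beside these groups. Neural markers gave 7 higher (38.9%) and 2 lower (11.1%) of 18 (median 0.94), against 13.5% and 9.97% over all genes. Their summed level was 729 and 1047 FPKM with NanogBiD, 823 and 719 with NanogWT, 59.4 and 96.4 in MEF and 136 in mES. It was above both references in either combination. Olig3, a factor of the dorsal neural tube, was at 8.07 and 7.76 against 1.25 and 0.730, Pax6 at 5.74 and 8.37 against 2.23 and 2.02 and Sox21 at 18.1 and 18.8 against 7.67 and 4.75, while the neurofilaments Nefl and Nefm were lower. Nefl was at 37.0 and 65.9 against 108 and 123. Without replicate 1 of NanogBiD the neural counts were 11 higher and 0 lower, and without replicate 2 of NanogBiD 4 were higher. Endothelial markers gave 3 higher and 1 lower of 8 tested (13.5% and 9.97% over all genes), and 4 were not tested. Of the 8, 4 had fewer than 2 NanogWT samples at 1 FPKM, and 2 of these were called higher, as such an entry favours. Of the 3 that passed the filter within each combination, 1 was higher and 1 lower. The lower one, Kdr, was under the fold limit without replicate 2 of NanogWT (-0.94). The higher ones were Pecam1, at 25.6 and 13.7 against 0.519 and 1.71, Egfl7 and Cldn5, and mES held 47.4 FPKM of Pecam1. Cdh5, which defines endothelium, was under 1 FPKM in all 4 samples. Keratinocyte markers gave 1 higher (Sfn) and 1 lower of 5 tested, with 6 not tested. The latter was Trp63, the p63 factor of basal epithelium, at 0.265 and 0.369 against 4.85 and 6.33 FPKM, with Krt5, its keratin, listed at 0 in all 4 samples. Trp63 passed the filter with fewer than 2 NanogBiD samples at 1 FPKM over all days, an entry that favours a lower call. Skeletal and cardiac muscle markers gave 1 higher, Actc1 at 2.502 and 1.70 against 0.146 and 0.289, and 0 lower of 5 tested, with 10 not tested.

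Of 39 Hox genes 7 were called higher and 2 lower (13.5% and 9.97% over all genes). Hoxb9 was at 109 and 159.9 against 14.2 and 45.7 FPKM and Hoxa9 at 19.3 and 20.1 against 3.81 and 5.604, both above MEF and mES with NanogBiD. The lower calls, Hoxa11 and Hoxd13, were 0 without replicate 1 of NanogWT and 4 without replicate 2 of NanogWT. Imprinted genes gave 3 higher and 3 lower of 28 (10.7% each, against 13.5% and 9.97% over all genes). Of 4 with fewer than 2 NanogWT samples at 1 FPKM over all days, 2 were called higher, Usp29 among them, as such an entry favours. Of the 23 that passed the filter within each combination, 1 was higher and 3 lower. Peg10, a domesticated retroelement gene, was at 133 and 73.5 against 13.96 and 23.3 and Usp29 at 5.196 and 3.56 against 0.313 and 0.676, whereas Plagl1 was at 47.8 and 60.3 against 209.6 and 382. Usp29 overlaps Zim3. Igf2 was at 135 and 136 against 285 and 264, a difference that quantile normalization brought to -0.88 and leaving out replicate 1 of NanogWT to -0.95, both under the fold limit. None of the 6 sex-linked genes was called. The Y-linked Ddx3y was at 18.2 and 15.6 against 16.03 and 16.6 FPKM, while Eif2s3y, also Y-linked, was at 18.2 and 14.5 against 9.60 and 10.8 (log2 difference 0.63, adjusted p = 0.00299, limma), under the fold limit with the groups apart. Of 7 tested genes of the Y chromosome 3 were called higher, and Xist, which overlaps Tsix, was at 6.10 and 12.3 against 4.38 and 6.94.

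How the D12 differences relate to the start and the goal was read from MEF and mES. Of 1086 tested genes that mES held at 4-fold or more the MEF level, 782 (72.0%) were called higher with NanogBiD and 18 lower. Of 1099 at least 4-fold higher in MEF, 611 (55.6%) were called lower and 15 higher. Of the 1086 genes, 292 had fewer than 2 NanogWT samples at 1 FPKM over all days, and 248 of these were among the 782. Of the 788 that passed the filter within each combination 532 were called higher and 18 lower, and 84 more genes high in mES were not tested. Over all 1086 genes, the median NanogBiD level had covered 71.8% of the log2 distance from MEF to mES (quartiles 53.4% and 87.3%) and the NanogWT level 18.5% (6.87% and 35.7%). At D12, 633 of them were within 2-fold of mES or above it with NanogBiD and 103 with NanogWT, as a description with no test. These values favour NanogBiD, since the 1086 genes hold the 292 with fewer than 2 NanogWT samples and lack the 84. They were not computed for the 788 genes alone. Among protein-coding genes high in mES, 87 were called higher and at or above mES with NanogBiD, led by Dppa3, Tfap2c and Slc35f2, and Dmrt1, a sex determination factor, at 12.1 and 9.08 against 0.0687 and 0.704 FPKM with 9.53 in mES. By contrast 29 protein-coding genes were called higher and still at least 4-fold under mES. They were led by Mymx, a fusion protein of muscle, at 6.09 and 4.09 against 1.07 and 0.618 with 56.1 in mES, and held Cdx1 at 8.01 and 10.8 against 2.57 and 5.21 with 83.8. Leaving out either replicate 2 of NanogBiD or replicate 1 of NanogWT brought the Cdx1 difference under the fold limit (0.94 and 0.74). A further 163 protein-coding genes were called higher though under 1 FPKM in MEF and mES, among them Cartpt, a neuropeptide precursor, at 14.3 and 12.0 against 1.35 and 1.24, and the neural homeobox gene Gsx1 at 5.54 and 3.26 against 0.318 and 0.136. How many of the 87, 29 and 163 genes had fewer than 2 NanogWT samples at 1 FPKM over all days was not counted. Such an entry favours a higher call, so these counts are a description. The genes named here were chosen by their values, and each counts once.

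Set against MEF, the calls in either direction had different makeups. Of the 2267 genes called higher, 1429 (63.0%) were at least 2-fold above MEF with NanogBiD and within 2-fold of it with NanogWT, and 317 were above MEF with both. Of the 1679 called lower, 551 (32.8%) were at least 2-fold below MEF with NanogBiD and within 2-fold with NanogWT. Others were at least 2-fold above MEF with NanogWT, and with NanogBiD 565 of these (33.7% of the 1679) were within 2-fold of MEF, 64 below it and 105 above it as well. Gda, a guanine deaminase, was of this kind, at 0.351 and 0.813 FPKM with NanogBiD, 41.6 and 49.6 with NanogWT and 0.654 and 0.260 in MEF. So was Cemip, a hyaluronan-degrading protein, at 3.57 and 4.12, 154 and 120.2 and 6.07 and 5.50 in the same order. In contrast Cav1 (caveolin 1) and Lox (lysyl oxidase) were within 2-fold of the mean MEF level with NanogWT, below it for both, at 2.74 and 4.63 against 71.0 and 89.5 and at 18.7 and 23.3 against 306 and 367, with 90.7 and 162 and 725 and 606 in MEF.

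**Figure D4:**
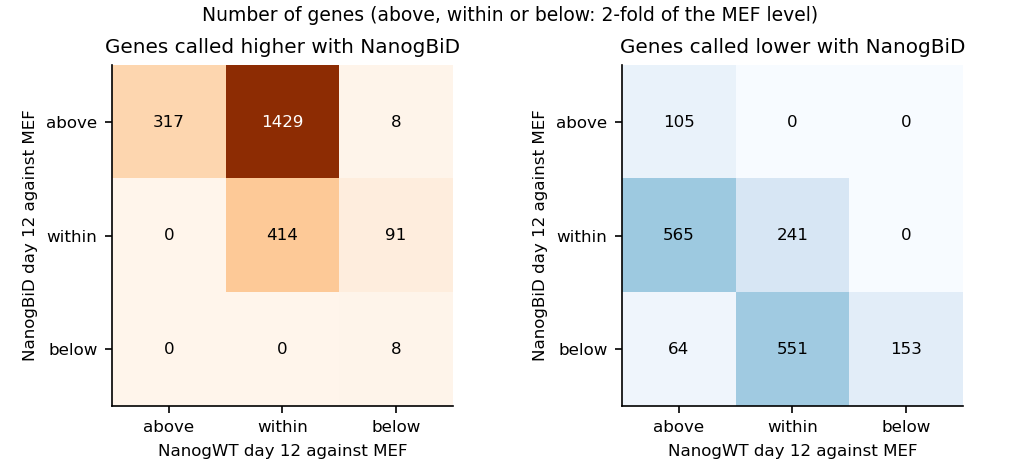
Numbers of genes called higher (left, 2267) and lower (right, 1679) with NanogBiD at day 12, by whether the mean of NanogBiD (rows) and of NanogWT (columns) lay at least 2-fold above, within 2-fold of or at least 2-fold below the mean of MEF on the log2(FPKM + 1) scale. Most higher calls (1429) were above MEF with NanogBiD and within 2-fold with NanogWT, while the lower calls fell mainly into 565 above MEF with NanogWT alone and 551 below MEF with NanogBiD alone.

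At D7, where the libraries were of like depth, the same contrast called 975 genes higher (5.79%) and 783 lower (4.65%). Of the 2267 genes higher at D12, 552 had been called higher at D7 (24.4% of the D12 genes and 56.6% of the D7 genes) and 5 lower. Of the 1679 lower at D12, 449 had been lower at D7 (26.7% and 57.3%) and 24 higher. Their D7 differences had the sign of D12 for 1964 of the 2267 and 1413 of the 1679, with medians of 0.56 and -0.57 at D7 against 1.35 and -1.61 at D12. The D12 values chose these genes, so their larger medians at D12 are a description. Whether a difference changed between the days was tested by the interaction of combination and day in the same limma fit, added after the data were seen. It passed for 1142 genes upward (6.78%) and 1235 downward (7.33%). Among the longer lists, the matrix genes changed often, with 25 of 33 matrix glycoproteins and proteoglycans and 15 of 22 collagens moving down. Their medians went from -0.41 to -2.52 and from -0.71 to -2.30. Wnt targets changed down in 10 of 19 cases, and cell cycle genes in either direction in 2 of 38, with medians of 1.24 and 1.71. MHC class I genes had a like median on both days (-1.005 and -1.003), with 10 called lower at D7. Even there 2 of 19 changed down and 1 up. B2m went down from -0.88 to -3.90 (change -3.01, adjusted p = 3.87e-07, limma). The D12 side of each of these tests carries the unequal depth of the NanogWT libraries.

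**Figure D5:**
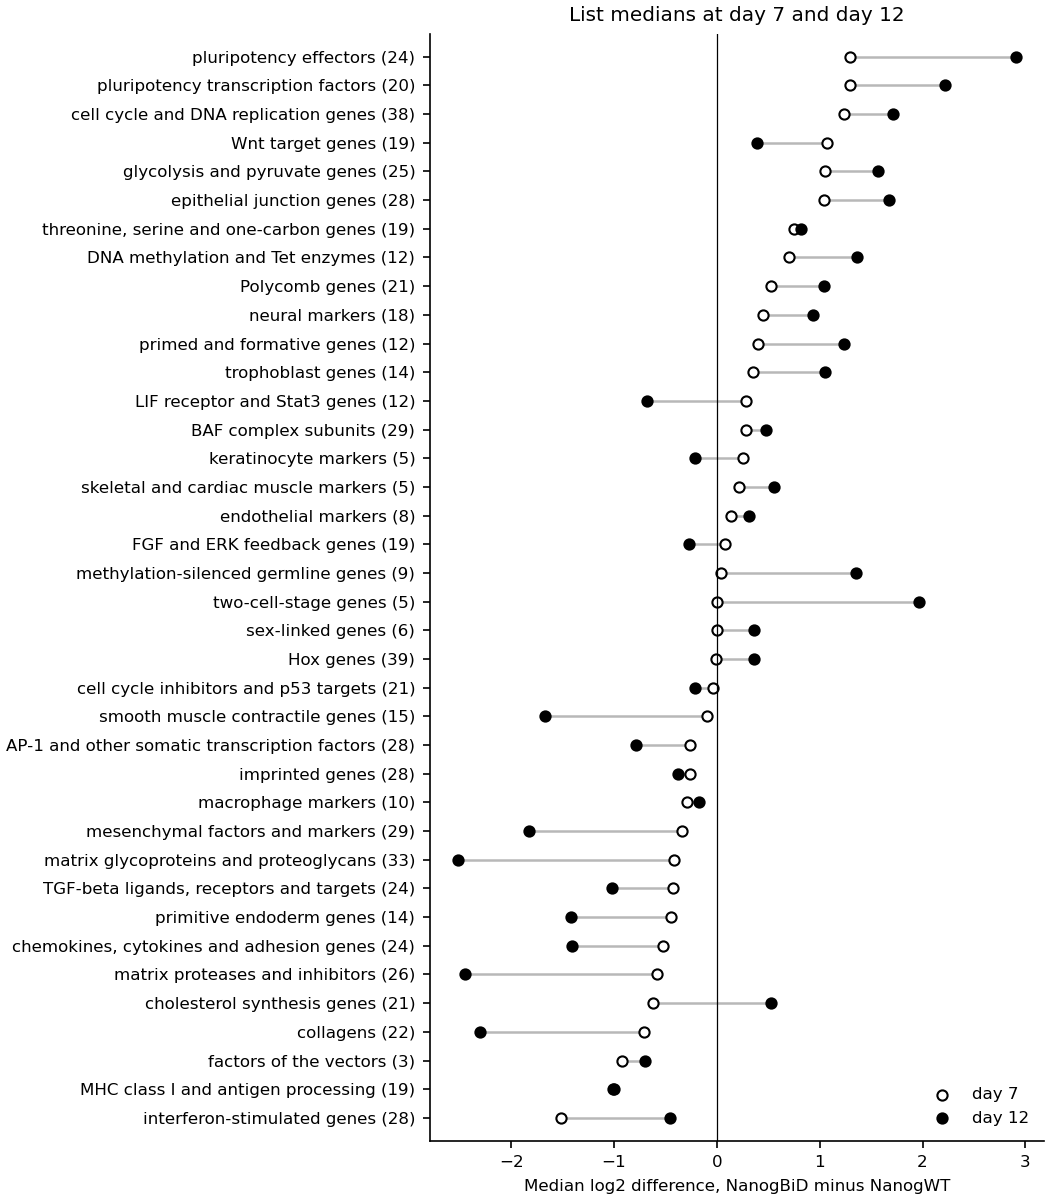
Median over the tested members of each gene list (number after the name) of the log2 difference between NanogBiD and NanogWT, at day 7 (open circles) and day 12 (filled circles), with 2 samples per combination and day. Both pluripotency lists lie further right at day 12 and the matrix lists further left, while interferon-stimulated genes (-1.51 at day 7, -0.45 at day 12) and Wnt targets (1.08 and 0.39) lie nearer to 0.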

How the data were processed

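RNA-seq of 4 samples (NanogBiD and NanogWT with Oct4 at D12, 2 each) was compared, with the D7 samples of the same combinations, 2 MEF and 1 mES libraries as references. The authors trimmed reads with Trim Galore 0.6.4, aligned them to mm10 with HISAT2 2.2.1 and quantified genes with StringTie 2.2.1, and deposited FPKM for 37108 genes in 34 samples. The annotation and the strand setting are not given in the sources used here. Read counts were not used here, so depth per library is known only in relative terms, from the most common ratio of the values of low genes between libraries, and low values are less precise in the shallower NanogBiD libraries.

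Genes of at least 1 FPKM in at least 2 of 31 time-course samples were tested on log2(FPKM + 1) with limma 3.58.1 in R 4.3.3 (lmFit, contrasts.fit, eBayes with a trend; 16 groups; no covariate; two-sided; Benjamini-Hochberg over 16842 genes). On simulated data for the D12 comparison with 16842 genes, 90 of 100 changes of log2 size 1.5 and 96 of 100 of size 2 were recovered, with 3 other genes called. The changes were placed only in genes that were not low, with normal noise and no difference in depth between the combinations. Recovery among low genes and the effect of unequal depth were thus not simulated. The members of the comparison and the gene lists were chosen with earlier results of these data known. Genes named in the text were Pou5f1, Nanog and Ss18, the 10 protein-coding genes with the largest called differences in each direction whose groups did not overlap, and up to 4 called members of each list in each direction by size. Members without a call, Junb, Jun, Lox, Mmp3 and Zfp42, and the examples set against MEF and mES were chosen after their values were seen. Symbols were matched to RefSeq (GRCm38.p6), 33567 by symbol and 1016 by synonym, with 2525 unmatched, and 511 tested entries were a second symbol of a gene that was also listed under another. List and example counts use each gene once, and counts over all tested genes count entries.

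Alternatives were another pseudocount, other filters, a common total, quantile normalization, the 4 D12 samples alone, a replicate block, no fold limit, removal of GC and length trends, protein-coding genes alone and leaving out each library. The authors' fold changes and peak data were not used here.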

Additional observations from a re-analysis of the deposited data

Results flagged for a closer look

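The gap between NanogBiD and NanogWT was not the same on D7 and D12, by the interaction in the limma fit (adjusted p under 0.05 and a change of at least 1 on the log2 scale), for 1142 genes upward and 1235 downward. These were 6.78% and 7.33% of all genes tested. Of the 169 genes picked by the rule for named genes, 92 were among them. That rule mostly took genes with large differences at D12, which favours a change from D7, so the 92 are a description. Lists of at least 10 tested genes with at least 1 in 3 members changed were, on the matrix and mesenchymal side, matrix glycoproteins and proteoglycans (25 of 33), mesenchymal genes (20 of 29), matrix proteases and inhibitors (17 of 26), collagens (16 of 22), smooth muscle genes (9 of 15) and TGF-beta genes (9 of 24). Chemokines, cytokines and adhesion genes changed in 9 of 24 cases and interferon-stimulated genes in 13 of 28. The pluripotency effectors changed in 14 of 24 cases, Wnt targets in 10 of 19, cholesterol synthesis genes in 10 of 21, LIF receptor and Stat3 genes in 7 of 12, cell cycle inhibitors and p53 targets in 7 of 21, and primitive endoderm and trophoblast genes in 5 of 14 each. The NanogWT libraries of D12 were deeper than those of D7, and its part in these changes was not tested. Of the 14 trophoblast genes, 7 had fewer than 2 NanogWT samples at 1 FPKM over all days.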

How the results depend on the processing

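Against 2267 genes called higher and 1679 lower, restricting the test to a mean of at least 5 FPKM at D12 gave 1347 and 1089, since fewer genes were tested, and dropping the fold limit gave 5327 and 3219. Leaving out 1 library at a time gave 2075 to 2474 higher and 1595 to 1710 lower. The other alternatives stayed within 1.5 times of these counts, from 1945 (quantile normalization) to 2954 (pseudocount 0.1) higher and from 1546 (protein-coding genes) to 2257 (pseudocount 0.1) lower. After quantile normalization the counts were 1945 higher and 1966 lower, so the larger number of higher calls did not hold there. Listing each gene once, an alternative added after seeing the data, gave 2191 and 1621. With the replicate block the counts were 2281 and 1680 at D12 and 980 and 785 at D7. Same-numbered samples deviated together little at D12 (r = 0.0202) and more at D7 (r = 0.395), and the labels give them no shared origin, so that with 2 pairs a day whether they are paired is not settled. Over 169 named genes and 14 alternatives, 2268 values kept direction and call, 61 lost the call, 1 gained it and 0 turned direction, in 34 genes. Calls were lost mainly without 1 library (15 and 9 without NanogBiD replicates 1 and 2, 11 and 12 without NanogWT replicates 1 and 2) and for 7 genes without GC and length trends. Depth limits the low genes: counts per library are unknown, and no interval could be given for them.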
